A study of Mus musculus with 23 samples.

Results

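The App knock-in was compared across all 23 hippocampal libraries of the series at once, as the mean of its effect in mice that have p16 and its effect in mice that lack it. The 11 libraries with the knock-in were 5 from AppNLGF mice (APP<NLGF/NLGF>) and 6 from AppNLGF_p16KO mice (APP<NLGF/NLGF> with P16<KO/KO>), and the 12 without it were 6 from WT and 6 from p16KO mice (P16<KO/KO>). Members were thus chosen by genotype label alone, 11 of 23 libraries against the other 12. Each library held messenger RNA, counted per gene, from the hippocampi of both sides of a mouse aged about 5 months. Both alleles were homozygous in the groups that carry them, and the labels name no Cre driver or cell type to which the loss of p16 was limited. Sex was not given in the labels, and Xist was high in 5 of 11 libraries with the knock-in and in 6 of 12 without it.

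App encodes the amyloid precursor protein, and the NLGF allele carries human-type amyloid-beta sequence with familial Alzheimer mutations in the mouse gene, so that amyloid plaques form without overexpression of the precursor. Microglia, the resident macrophages of the brain, gather at such plaques and switch on a Trem2-dependent programme of lysosomal, lipid and phagocytic genes, and astrocytes nearby raise intermediate filaments. p16, a product of Cdkn2a, inhibits the cyclin D kinases and marks senescent cells. The comparison averages over p16 status, and so asks what the knock-in did in both backgrounds, including changes too small to be called with 5 or 6 mice on a side.

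Averaged over p16 status, 154 genes passed an adjusted p of 0.05 among the 19423 genes tested (0.793%), of which 126 were higher with the knock-in (0.649%) and 28 lower (0.144%). The test was the quasi-likelihood F test of edgeR with Benjamini-Hochberg adjustment over all genes tested, and every adjusted p below comes from it unless another tool is named. AppNLGF against WT alone called 62 genes (0.319%), 59 higher (0.304%) and 3 lower (0.0154%). AppNLGF_p16KO against p16KO alone called 48 (0.247%), 43 higher (0.221%) and 5 lower (0.0257%). The average called 85 genes that neither of these called (0.438%), 62 of them higher (0.319%) and 23 lower (0.118%). Of the 28 genes called lower, 23 were therefore visible only in the average, and none was called in both backgrounds. Of the 126 called higher, 32 were called in both backgrounds, 24 only with p16 and 8 only without it.

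These responses were small. The median size of the log2 difference was 0.43 for the 62 higher genes that neither background called, and 0.61 for the 64 higher genes that at least 1 background called. It was 0.25 for the 28 lower genes. A change of less than 1.5-fold was seen in 75 of the 126 higher and 24 of the 28 lower genes, and of less than 1.2-fold in 11 of the higher and 16 of the lower ones. The median standard error of a log2 difference over the genes tested was 0.0769 for the average, against 0.111 with p16 and 0.106 without p16. The 2 single comparisons share no library, so the differences of genes called in one are measured afresh in the other. Both come from 1 fit that shares one estimate of the spread, so their p-values are not fully separate. Of the 59 genes called higher with p16, 57 had the same sign without p16, 52 at an unadjusted p under 0.05, and 32 were called. Of the 43 genes called higher without p16, 42 had the same sign with p16, 39 at an unadjusted p under 0.05, and 32 were called.

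**Figure D1:**
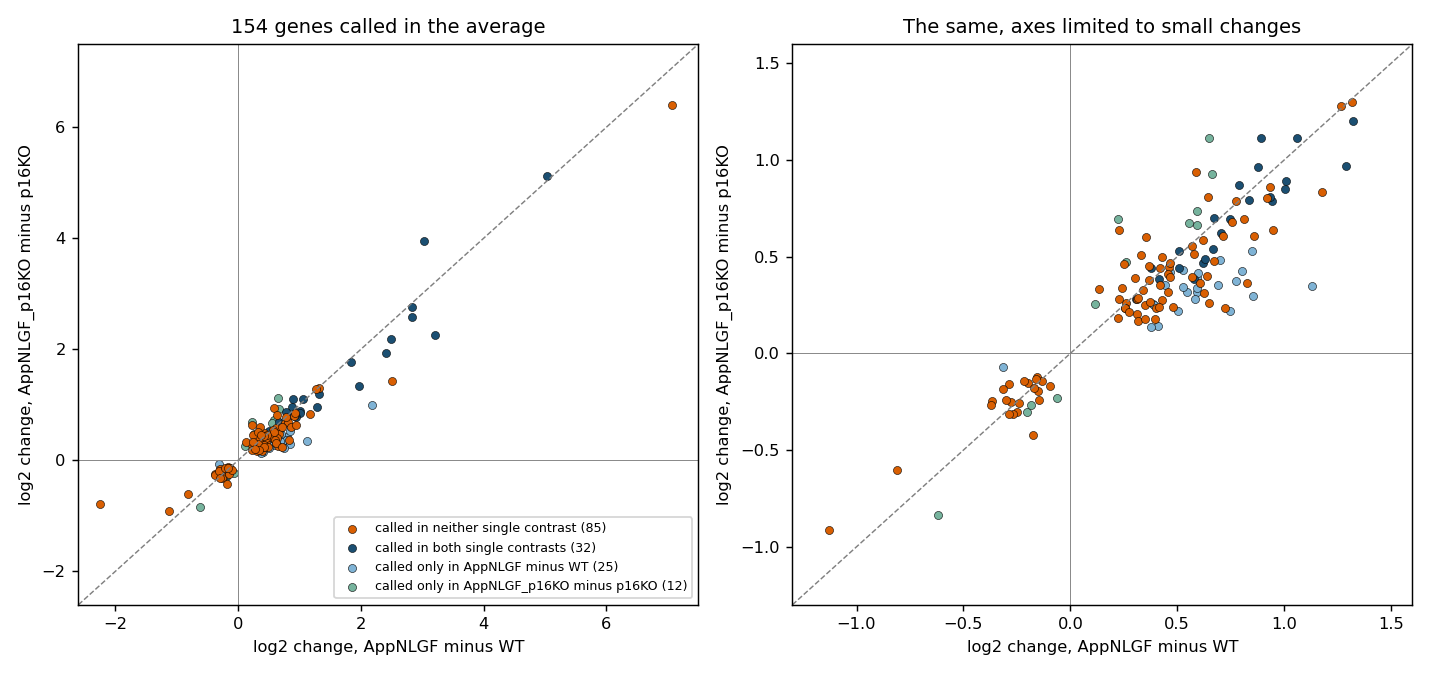
Log2 difference made by the App knock-in without p16 (AppNLGF_p16KO minus p16KO, vertical axis) against that with p16 (AppNLGF minus WT, horizontal axis), 1 point per gene called in the average (154 genes), coloured by whether a single background also called it, on full axes and on axes limited to small changes. All points lie on the same side of 0 on both axes, and of the 85 called in neither background 62 are above 0 and 23 below 0.

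Depth did not separate the groups. Total counts were 40.7e6 to 59.5e6 per library with the knock-in (median 54.6e6) and 45.4e6 to 61.2e6 without it (median 55.2e6). The mitochondrial share of counts was 3.30% to 3.99% with the knock-in and 2.79% to 3.92% without it. Library numbers in the labels run by genotype, so the knock-in and any order of handling cannot be told apart. App itself had 1457 to 1643 CPM (counts scaled to a common library size) with the knock-in (median 1558) and 1559 to 1752 CPM without it (median 1623), a log2 difference of −0.08 ± 0.03 (SE) that was not called (adjusted p = 0.321). Counts per gene do not separate the knocked-in from the mouse allele, so App does not check the labels. Cdkn2a, whose counts do not separate p16 from its partner transcript p19ARF, had 49 reads in all over the 11 libraries with the knock-in (0 to 9 per library) and 21 over the 12 without it (0 to 6 per library), too few for the gene-wide test. Its mean was 0.0859 CPM with and 0.0309 CPM without the knock-in (two-sided exact permutation test within backgrounds, p = 0.00627 over 426888 splits). These reads and means cover both backgrounds, including P16<KO/KO> mice, and values by background are not given. The p is for this gene alone, with no adjustment over genes.

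Of the 62 higher genes that only the average called, 14 were in a list of microglial or lysosomal genes, which held 197 of the 19423 genes tested, and 19 were in any of 45 lists, which held 1182. Grn encodes progranulin, a lysosomal glycoprotein whose loss causes dementia (ENSMUSG00000034708, GRCm38 chromosome 11, 102430315 to 102437048). It had 61.2 to 77.0 CPM with the knock-in (median 71.4) and 50.7 to 62.3 CPM without it (median 58.9), and the groups overlapped by a narrow margin. The log2 difference was 0.26 ± 0.04 (adjusted p = 0.000994), and it was 0.26 in each background, where the adjusted p was 0.0775 with p16 and 0.0639 without it. Laptm5, a lysosomal membrane protein of blood-lineage cells (chromosome 4, 130913125 to 130936141), had 28.8 to 45.3 CPM with the knock-in (median 37.8) and 20.7 to 34.8 CPM without it (median 27.8). Its log2 difference was 0.45 ± 0.08 (adjusted p = 0.00155), and all 11 libraries with the knock-in lay above the median of the 12 without it. Lpcat2, an acyltransferase that makes platelet-activating factor, had 14.4 to 19.2 CPM with the knock-in and 12.4 to 16.0 CPM without it (log2 difference 0.25 ± 0.05, adjusted p = 0.0115). Lyz2, macrophage lysozyme, had 10.6 to 15.4 CPM with and 4.33 to 13.5 CPM without the knock-in, and its log2 difference was 0.75 ± 0.14 (adjusted p = 0.00608). Its counts are less certain, since the near-identical Lyz1 can take or lose uniquely aligned reads.

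Transcription factors and receptors that define microglia were among the small responses. Spi1, chosen here after its values were seen, encodes PU.1, the master regulator of macrophage identity (chromosome 2, 91082390 to 91115756). It had 3.52 to 5.07 CPM with the knock-in (median 4.18) and 2.73 to 3.82 CPM without it (median 3.24), a log2 difference of 0.39 ± 0.08 (adjusted p = 0.00826). Runx1, a second transcription factor of the myeloid lineage, also chosen after its values were seen, had a log2 difference of 0.52 ± 0.11 (adjusted p = 0.00959). Its medians were 1.33 CPM with and 0.951 CPM without the knock-in. It is 1 of 2 genes called among 96 tested within 10 Mb of App on chromosome 16, against 0.793% called of all genes tested. A part of the App locus in its change was not tested. Both factors rose in all leave-one-out repeats, where the largest adjusted p was 0.0264 for Spi1 and 0.0238 for Runx1.

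Transcripts of a ligand and of a receptor subunit of TGF-beta signalling, which keeps microglia in their resting state, were higher. Signalling itself and the cells that held these transcripts were not measured. The receptor subunit Tgfbr2 (chromosome 9, 116084293 to 116175360) had 18.9 to 25.2 CPM with the knock-in (median 23.2) and 16.7 to 21.8 CPM without it (median 19.3), with a log2 difference of 0.26 ± 0.05 (adjusted p = 0.00636). The ligand Tgfb1 had 3.66 to 5.93 CPM with the knock-in (median 4.82) and 2.97 to 4.35 CPM without it (median 3.75), with a log2 difference of 0.39 ± 0.09 (adjusted p = 0.0272). The ranges overlapped for both genes. The call of Tgfbr2 held whichever library was left out, while Tgfb1 lost its call in 7 of 23 leave-one-out fits, where its adjusted p reached 0.0756.

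Of 26 genes of resting microglia, 10 were called higher (38.5%, against 0.649% of all genes tested) and 0 lower. Of the 10, 5 (Gpr34, Spi1, Selplg, P2ry13 and Aif1) were called only in the average. The median log2 difference over the list was 0.22, against −0.0004 over all genes tested, and it was 0.26 with p16 and 0.22 without it. Gpr34, the lysophosphatidylserine receptor, had 15.9 to 20.4 CPM with the knock-in and 12.0 to 18.4 CPM without it (log2 difference 0.34 ± 0.06, adjusted p = 0.00635). Selplg, the ligand of P-selectin, had 26.8 to 38.7 CPM with the knock-in and 22.4 to 28.6 CPM without it (0.30 ± 0.06, adjusted p = 0.00904), and the ADP receptor P2ry13 had 14.4 to 19.9 CPM with the knock-in and 11.1 to 17.1 CPM without it (0.30 ± 0.07, adjusted p = 0.0261). The ranges of all these receptors overlapped between the groups. The call of P2ry13 was lost without WT library 4 or AppNLGF library 14, 15 or 17, with an adjusted p of up to 0.0695. The best-known surface markers of resting microglia were not called, with log2 differences of 0.17 ± 0.06 for the fractalkine receptor Cx3cr1 (adjusted p = 0.266), 0.13 ± 0.04 for the purine receptor P2ry12 (adjusted p = 0.264) and 0.12 ± 0.06 for Tmem119 (adjusted p = 0.503). Csf1r, the receptor for the microglial survival factors, lay just outside the threshold at 0.21 ± 0.05 (adjusted p = 0.0511), while Chchd5 (adjusted p = 0.0486) and the microglial marker Aif1 (adjusted p = 0.0491) lay just inside it. Aif1 lost its call in 19 of 23 leave-one-out fits.

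The summed level of 6 microglial marker genes was 361 to 429 CPM with the knock-in (median 398) and 301 to 349 CPM without it (median 337), without overlap. Their median log2 difference was 0.19, and Aif1 was among those called. In bulk RNA, more cells of a type and more RNA per cell cannot be told apart, and the part of microglial number in the microglial changes was not tested. Markers of the other 13 cell types had 0 called genes. Among these, neuronal markers summed to 4130 to 5070 CPM with the knock-in and 4365 to 4868 CPM without it, oligodendrocyte markers to 4533 to 7484 CPM with it and 4313 to 5745 CPM without it, and markers of border macrophages to 3.77 to 9.11 CPM with it and 3.95 to 9.15 CPM without it. Choroid plexus markers varied most, from 264 to 3708 CPM with the knock-in and from 114 to 5611 CPM without it.

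**Figure D2:**
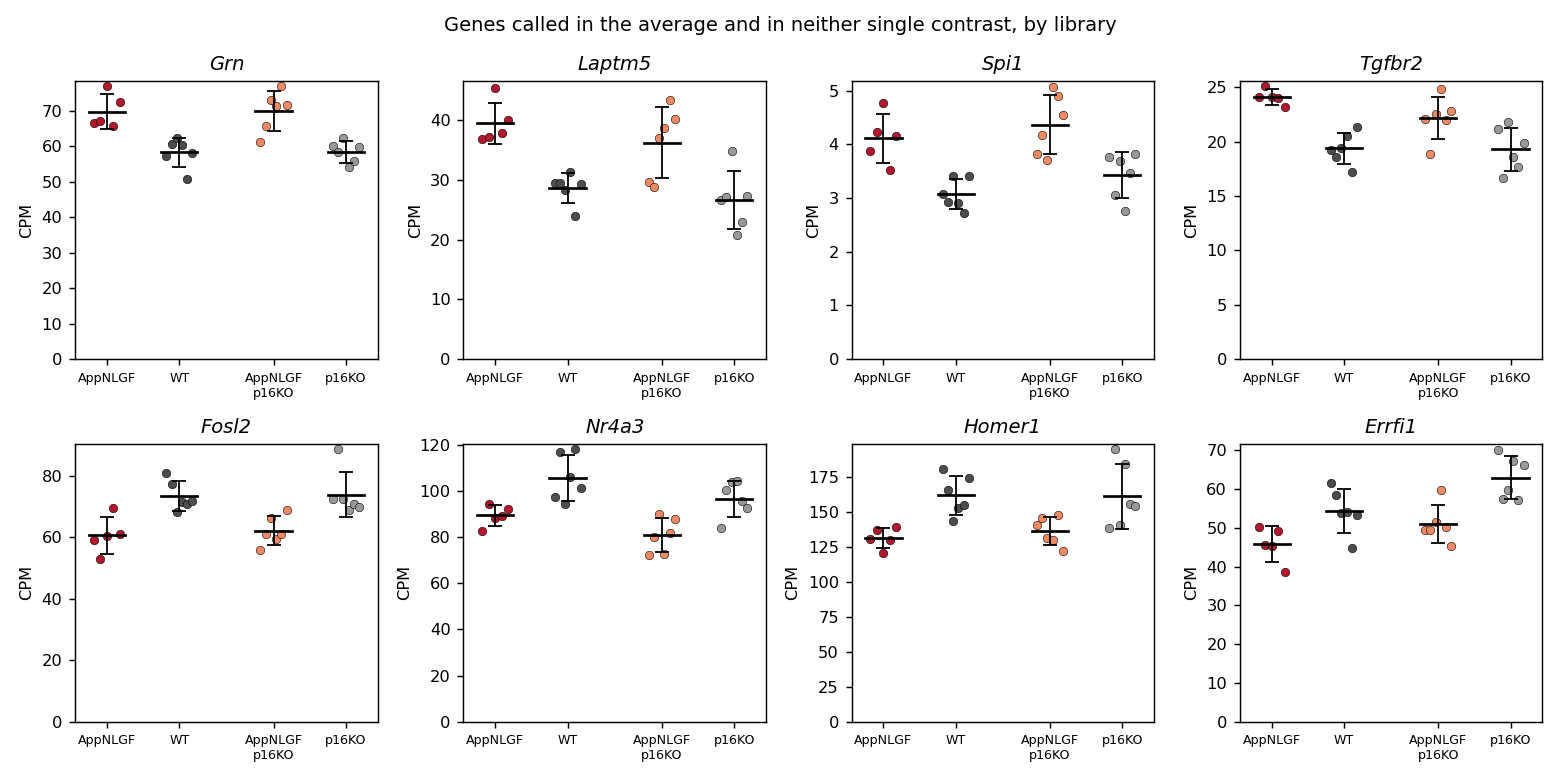
CPM (vertical axes) in every library for 4 genes higher with the knock-in (Grn, Laptm5, Spi1, Tgfbr2) and 4 lower (Fosl2, Nr4a3, Homer1, Errfi1), by genotype from left to right AppNLGF, WT, AppNLGF_p16KO and p16KO. Points are libraries and bars are mean ± SD, and the 11 libraries with the knock-in overlap the 12 without it. The means of each gene differ in the same direction with p16 and without it, which calling genes on the average favours.

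Further genes that only the average called included immune receptors and enzymes, and 43 of the 62 higher ones were in no list. Expressed per kilobase, the 62 higher genes called only in the average had a median level of 1.73 CPM per kb, against 4.43 for the higher genes called in a single background and 7.31 over all genes tested. Klhl6, a ubiquitin-ligase adaptor of lymphoid and myeloid cells, had 2.23 to 4.04 CPM with the knock-in (median 2.78) and 1.15 to 2.40 CPM without it (median 1.74), with a log2 difference of 0.72 ± 0.12 (adjusted p = 0.00119). Tbxas1, thromboxane synthase, had 2.68 to 4.75 CPM with and 1.85 to 3.08 CPM without the knock-in (0.60 ± 0.10, adjusted p = 0.00113). The tetraspanin Cd53 had 9.05 to 13.0 CPM with and 7.44 to 10.4 CPM without the knock-in (0.37 ± 0.07, adjusted p = 0.0019). In each of these genes the groups overlapped at their edges. Gpr65, a receptor that senses acid, had a median of 0.42 CPM with the knock-in and 0.14 CPM without it, and its log2 difference was 1.27 ± 0.24 (adjusted p = 0.00474). On the libraries without the knock-in alone, Gpr65 would not have passed the filter on low counts, so its call is given as a description and not as support. The cell-surface protease St14 was at a median of 1.10 CPM with and 0.539 CPM without the knock-in (0.90 ± 0.17, adjusted p = 0.00557), the sialic acid receptor Siglecf at 1.13 CPM with and 0.638 CPM without it (0.73 ± 0.14, adjusted p = 0.00707), and the checkpoint receptor Havcr2, also called TIM-3, at 4.03 CPM with and 2.89 CPM without it (0.43 ± 0.09, adjusted p = 0.0071). Asb10, of the ankyrin and SOCS box family, had 0.32 to 0.765 CPM with and 0.0795 to 0.408 CPM without the knock-in (1.31 ± 0.25, adjusted p = 0.00456). All of these genes kept their call whichever library was left out, which for Gpr65 is likewise description only.

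Of 24 antigen presentation genes, 3 were called higher (12.5%, against 0.649% of all genes tested) and all 3 only in the average, and the list's median log2 difference was 0.15. The peptide transporter Tap1 had 4.66 to 6.01 CPM with the knock-in and 3.45 to 5.45 CPM without it (0.32 ± 0.07, adjusted p = 0.0223), and lost its call without AppNLGF library 16 or 17 (adjusted p up to 0.0559). The class I light chain B2m had 64.7 to 132 CPM with and 63.8 to 94.4 CPM without the knock-in (0.35 ± 0.08, adjusted p = 0.0361), and the immunoproteasome subunit Psmb8 had 3.90 to 5.57 CPM with and 2.35 to 4.2 CPM without it (0.36 ± 0.08, adjusted p = 0.0379). These calls were less firm, being lost in 14 leave-one-out fits for B2m and in 13 for Psmb8, with adjusted p up to 0.0817 and 0.0893. H2-Oa, a subunit of the class II chaperone DO, had 0.392 to 0.861 CPM with and 0.235 to 0.51 CPM without the knock-in (0.86 ± 0.15, adjusted p = 0.00234). Its partner subunit H2-Ob, chosen after its values were seen, was called without p16 as well as in the average, at medians of 1.26 CPM with and 0.623 CPM without the knock-in (0.88 ± 0.14, adjusted p = 0.000428).

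Of 36 genes of the type I interferon response, all 36 had a log2 difference above 0 in the average, and 1 was called, Ifit3b (2.78%, against 0.649% of all genes tested). The list's median log2 difference was 0.32, with 0.44 in the presence of p16 and 0.19 in its absence. AppNLGF library 17 stood apart, with a mean log2(CPM + 0.5) over the list of 2.59 against 1.79 to 1.99 in the other 4 AppNLGF libraries, and without it the median fell to 0.17. Ifit3b had 2.06 to 7.06 CPM with and 0.991 to 2.55 CPM without the knock-in (0.60 ± 0.14, adjusted p = 0.0417), and was not called without AppNLGF library 17 (adjusted p = 0.0752), nor in 16 other leave-one-out fits. Its near-identical relative Ifit3 makes its unique counts uncertain.

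Among the lists whose members a single background also called, the average added few genes. Of 36 plaque-induced microglial genes 15 were called higher (41.7%, against 0.649% of all genes tested), 3 of them (Lyz2, B2m and Capg) only in the average. The mean log2(CPM + 0.5) over this list was 4.13 to 4.35 with the knock-in and 3.49 to 3.84 without it, so that all 11 libraries with it lay above all 12 without it. Of 18 partners of Trem2 in its signalling pathway 5 (27.8%) were called (Tyrobp, Trem2, Ptpn6, Pik3cg and Laptm5), with a median of 0.26. Of 34 phagocytic, Fc and Toll-like receptors 9 (26.5%) were called (median 0.31), and of 21 complement genes 7 (33.3%) were called. The complement median was 0.14, with 0.24 in the presence of p16 and 0.05 in its absence. It was 0.095 in the average when no count filter was applied. Of 22 chemokines and cytokines 5 (22.7%) were called (Ccl6, Ccl3, Ccl4, Ccl9 and Tgfb1). Their list median of 0.38 was 0.17 without AppNLGF library 17 and 0.11 when only genes with 15 reads or more in at least 21 libraries were kept. Lysosomal genes in general moved little: the median over 41 hydrolases and membrane proteins was 0.05, with Cd68, Gusb and Grn among those called. In lipid handling 1 of 24 genes (4.17%) was called (Lpcat2), and of 23 genes that process App 0 were called in edgeR, with a median of −0.02.

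**Figure D3:**
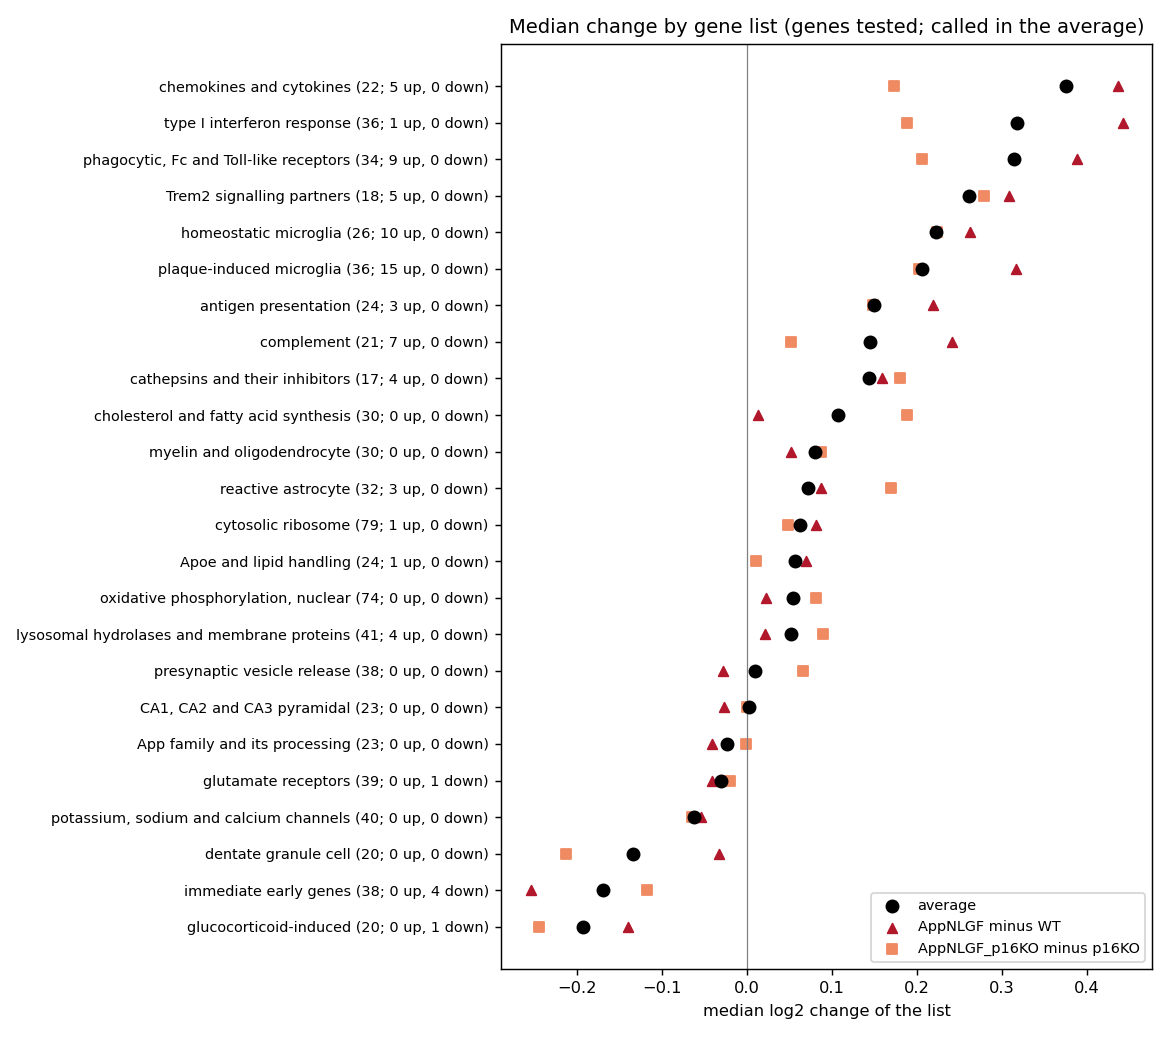
Median log2 difference made by the App knock-in (horizontal axis) over the tested members of 24 gene lists (rows), in the average and in each background. Lists of microglia, Fc and Toll-like receptors, chemokines and interferon genes lie to the right of 0, and those of immediate early and glucocorticoid-induced genes to the left of it.

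Genes listed for reactive astrocytes showed 1 strong and few other changes, and the cells that held these transcripts were not measured. Gfap, the intermediate filament of reactive astrocytes, had 456 to 737 CPM with the knock-in (median 499) and 273 to 436 CPM without it (median 360.2), without overlap (0.52 ± 0.06, adjusted p = 1.49e-05). Of 32 reactive astrocyte genes 3 (Gfap, C4b and Psmb8) were called higher (9.38%, against 0.649% of all genes tested). C4b is also in the complement list and Psmb8 in the antigen presentation list. The list's median was 0.07, or 0.11 without p16KO library 10. The complement component C4b had 27.8 to 53.8 CPM with and 24.2 to 38.8 CPM without the knock-in (0.48 ± 0.08, adjusted p = 0.00157). Its log2 difference was 0.75 ± 0.12 with p16 and 0.22 ± 0.11 without it, and the test of this difference gave an unadjusted p of 0.00353 but an adjusted p that was not called. The summed astrocyte markers were 4085 to 5028 CPM with the knock-in and 4155 to 4895 CPM without it.

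Of the genes that were lower with the knock-in, 0 of 28 were in a microglial or lysosomal list. Those lists held only 197 of the 19423 genes tested, so this 0 is not a trait of the lower genes. Any list held 7 of the 28, against 56 of the 126 higher ones and 1182 of the 19423 genes tested. The 23 called only in the average were expressed at a median of 12.6 CPM per kb. Of 38 immediate early genes, which neurons transcribe within minutes of firing, 4 were called lower (10.5%, against 0.144% of all genes tested) and 0 higher. All 4 were called only in the average. The list's median log2 difference was −0.17, with −0.25 in the presence of p16 and −0.12 in its absence, and 31 of the 38 were below 0. The mean log2(CPM + 0.5) over the list was 4.14 to 4.49 with the knock-in (median 4.37) and 4.31 to 4.61 without it (median 4.49), and 4 of the 11 libraries with it lay below all 12 without it. Fosl2, an AP-1 transcription factor (ENSMUSG00000029135, chromosome 5, 32135801 to 32157842), had 53 to 69.6 CPM with the knock-in (median 61.1) and 68.2 to 88.6 CPM without it (median 71.6). Its log2 difference was −0.26 ± 0.05 (adjusted p = 0.00456), with all 11 libraries below the median of the 12 without the knock-in and an overlap of little more than 1 CPM. Nr4a3, an orphan nuclear receptor (chromosome 4, 48045153 to 48086447), had 72.3 to 94.3 CPM with and 83.7 to 118 CPM without the knock-in (−0.25 ± 0.05, adjusted p = 0.00707). Homer1, a postsynaptic scaffold with an activity-induced short form that gene counts do not separate from the long ones (chromosome 13, 93299635 to 93405129), had 120.5 to 148 CPM with and 138 to 195 CPM without it (−0.27 ± 0.06, adjusted p = 0.0101). The zinc finger factor Egr4 had 12.1 to 18.3 CPM with and 15.9 to 23.0 CPM without the knock-in (−0.30 ± 0.07, adjusted p = 0.0461). Fosl2, Nr4a3 and Homer1 kept their calls in all 23 leave-one-out fits, whereas Egr4 lost its call in 16 of them, with adjusted p up to 0.097.

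Errfi1, which encodes the EGF receptor inhibitor MIG6 and is induced by glucocorticoids, had 38.5 to 59.9 CPM with the knock-in (median 49.4) and 44.9 to 70.1 CPM without it (median 58.0), with a log2 difference of −0.28 ± 0.06 (adjusted p = 0.0101). It was the only one called of 20 glucocorticoid-induced genes (5%, against 0.144% of all genes tested called lower). Of the 20, 17 were below 0, and their median was −0.19. p16KO library 7 stood apart on this list, at a mean log2(CPM + 0.5) of 5.53 against 4.73 to 4.95 in the other 5 p16KO libraries, and without it the median was −0.13. Of 20 genes of dentate granule cells 18 were below 0 with a median of −0.13 (−0.03 with p16 and −0.21 without it), and 0 were called by edgeR; 8 had an unadjusted p under 0.05. The granule cell factor Prox1 was at −0.20 ± 0.09 (adjusted p = 0.392) and the calcium buffer Calb1 at −0.10 ± 0.07 (adjusted p = 0.654). Among 40 ion channels 33 were below 0, with a median of −0.06, and among 39 glutamate receptor and postsynaptic genes Homer1 was the only one called (2.56%).

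**Figure D4:**
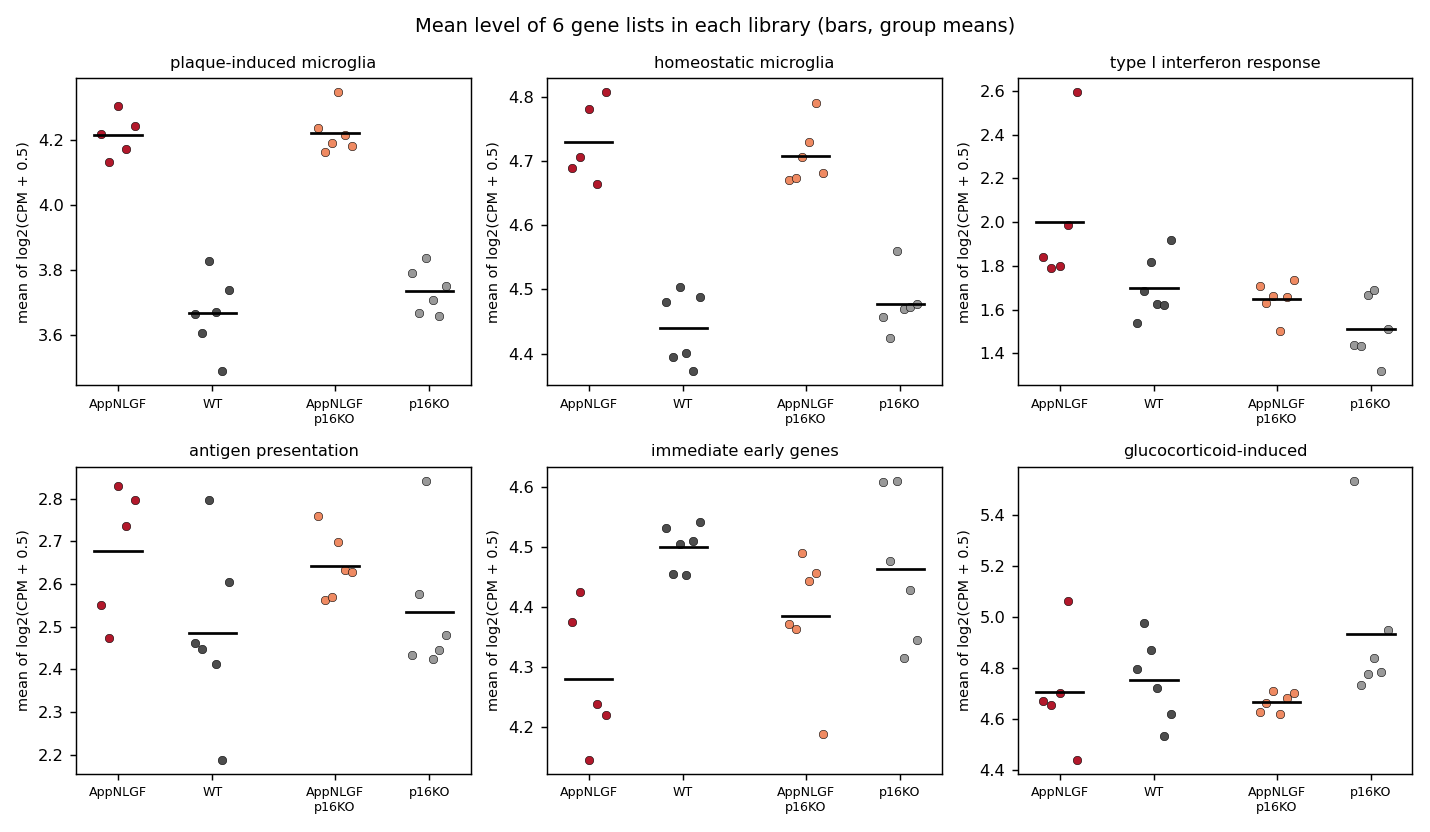
Mean log2(CPM + 0.5) over the members of 6 gene lists (vertical axes) in each library, by genotype from left to right AppNLGF, WT, AppNLGF_p16KO and p16KO. On the plaque-induced list all 11 libraries with the knock-in lie above all 12 without it, while on the interferon and glucocorticoid lists a single library (AppNLGF 17, p16KO 7) stands apart.

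Of the 28 lower genes, 21 were in no list. Among these, Zfp949 and Zfp667 encode zinc finger proteins. Zfp949 had 14.1 to 21.2 CPM with the knock-in (median 17.0) and 17.6 to 24.4 CPM without it (median 21.0), with a log2 difference of −0.31 ± 0.06 (adjusted p = 0.00831). Zfp667 had 19.5 to 25.2 CPM with and 21.4 to 27.8 CPM without it (−0.22 ± 0.05, adjusted p = 0.0127). Both overlapped between groups, and both kept their calls whichever library was left out. Zfp189 was lower by a similar amount (−0.32 ± 0.07, adjusted p = 0.0317), but lost its call in 11 leave-one-out fits (adjusted p up to 0.0752). Gpr161, a receptor of the primary cilium that restrains hedgehog signalling, had 55.7 to 89.6 CPM with and 76.3 to 105 CPM without the knock-in (−0.29 ± 0.07, adjusted p = 0.0329), and was called in 11 of 23 leave-one-out fits. Mns1, a protein of motile cilia and the sperm tail that was also called without p16, had 2.57 to 4.91 CPM with and 3.92 to 7.75 CPM without it (−0.73 ± 0.13, adjusted p = 0.00219). Clec3b, tetranectin, had 1.30 to 2.96 CPM with and 1.41 to 3.93 CPM without it (−0.71 ± 0.16, adjusted p = 0.0223), and lost its call without AppNLGF library 13, 15 or 17 (adjusted p up to 0.0559). Beside these, ependymal markers summed to 9.62 to 16.0 CPM with the knock-in and 8.77 to 20.8 CPM without it, and meningeal markers to 48.2 to 127 CPM with it and 60.7 to 107 CPM without it; their part in the changes of Mns1 and Clec3b was not tested.

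Differences of small size were called in genes of broader function. Dcaf1, a substrate receptor of CUL4 ubiquitin ligases, had 39.6 to 43.8 CPM with the knock-in (median 41.1) and 42.9 to 47.9 CPM without it (median 45.3), a log2 difference of −0.14 ± 0.03 (adjusted p = 0.0168). Sec23ip, a partner of the COPII coat, had 50.7 to 59.6 CPM with and 58.7 to 64.3 CPM without it (−0.14 ± 0.03, adjusted p = 0.0255). In both, the ranges of the groups overlapped by less than 1 CPM. Dcaf1 lost its call without AppNLGF library 13 (adjusted p = 0.0521), and Sec23ip lost it without WT library 3 or AppNLGF library 14, 15 or 17 (adjusted p up to 0.0568). The histone demethylase Kdm7a had 86.1 to 117 CPM with and 109.9 to 143 CPM without it (−0.25 ± 0.05, adjusted p = 0.00373), and the ubiquitin ligase Rnf19a had 52.6 to 60.1 CPM with and 56.3 to 77.9 CPM without it (−0.23 ± 0.04, adjusted p = 0.00456). These were also called without p16. Stmn4, a neuronal microtubule regulator, had 141 to 197 CPM with and 168 to 215 CPM without it (−0.19 ± 0.05, adjusted p = 0.0379), and was the only lower gene called with p16 and in the average; it lost the call in the average in 11 leave-one-out fits (adjusted p up to 0.084). By position, 6 of the 28 lower genes lay on chromosome 9 (21.4%, against 5.71% of genes tested) and 5 on chromosome 4 (17.9%, against 5.71%). Chromosome 4 also carries Cdkn2a, and a part of either edited locus in these positions was not tested.

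**Figure D5:**
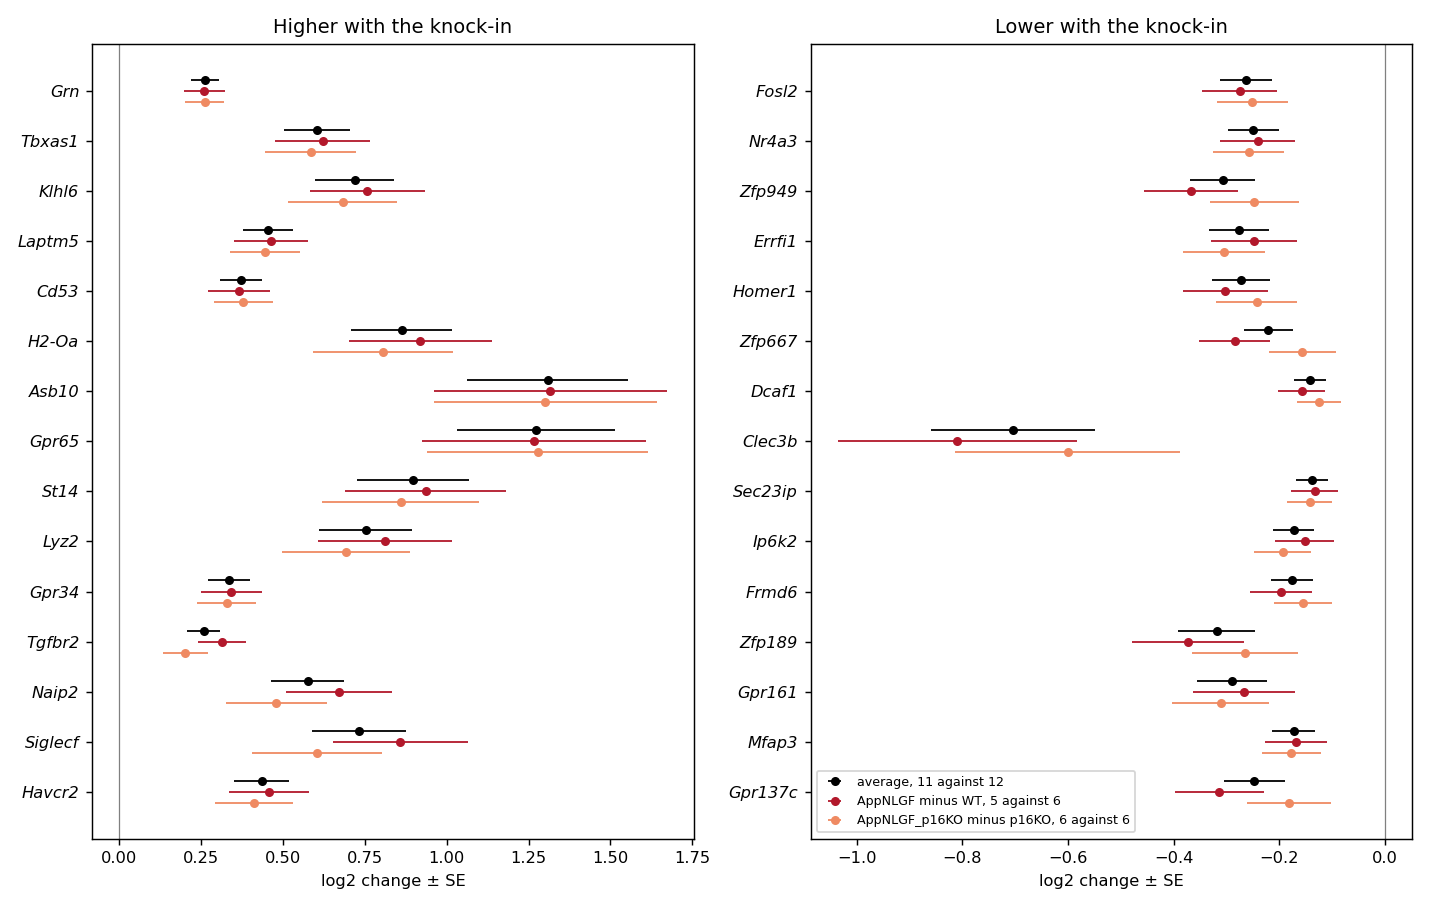
Log2 difference ± SE (horizontal axis) for the 15 higher and 15 lower genes of smallest p that the average called and neither background did, in the average, in AppNLGF minus WT and in AppNLGF_p16KO minus p16KO. Estimates from both backgrounds lie on the same side of 0, which follows largely from choosing the genes by the average. The bar of the average, which draws on the libraries of both backgrounds, is the shortest.

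The windows around the transcription starts were read for these genes, from 250 bases before to 50 after the start, and a window was found for 97 of the 126 higher and 22 of the 28 lower genes. The core that PU.1 binds, GAGGAAGT on either strand, was in 13 of the 97 higher windows (13.4%), 1 of the 22 lower ones (4.55%) and 3.35% of the 13329 tested genes with a window. The short form of the cyclic AMP response element, TGACG on either strand, was in 18 of the 97 higher windows (18.6%), 11 of the 22 lower ones (50%) and 32.4% of tested genes. The full element TGACGTCA, which contains the short form, was in 1 of the higher (1.03%) and 3 of the lower windows (13.6%), against 3.2%. The lysosomal element TCACGTGA was in 2 higher (2.06%) and 1 lower window (4.55%), against 1.87%, and the interferon-stimulated response element, as a pair of GAAA runs spaced by 2 bases, in 7 higher (7.22%) and 3 lower windows (13.6%), against 3.61%. A match describes letters and not a bound site. To show where the letters lie, 3 windows of higher genes that only the average called are printed first (Slamf9, an immune receptor chosen after its values were seen, had medians of 1.42 CPM with and 0.812 CPM without the knock-in). They run 5′ to 3′ on the strand of the gene and stop 30 bases after the start, with the PU.1 core in capitals, in RefSeq sequence of GRCm38.p6. Cd53 lies at chr3:106790120-106790399 on the minus strand, Havcr2 at chr11:46454681-46454960 and Slamf9 at chr1:172475110-172475389, both on the plus strand.
Cd53: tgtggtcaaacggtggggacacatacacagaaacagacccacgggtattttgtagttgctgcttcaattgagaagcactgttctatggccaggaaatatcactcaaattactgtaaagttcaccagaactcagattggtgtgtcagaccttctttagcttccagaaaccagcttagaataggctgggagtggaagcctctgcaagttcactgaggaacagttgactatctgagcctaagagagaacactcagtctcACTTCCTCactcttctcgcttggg
Havcr2: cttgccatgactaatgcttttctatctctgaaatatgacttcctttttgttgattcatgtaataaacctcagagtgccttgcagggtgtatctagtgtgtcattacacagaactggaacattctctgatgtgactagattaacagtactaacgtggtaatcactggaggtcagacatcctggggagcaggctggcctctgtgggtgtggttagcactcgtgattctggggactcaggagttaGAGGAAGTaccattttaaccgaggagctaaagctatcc
Slamf9: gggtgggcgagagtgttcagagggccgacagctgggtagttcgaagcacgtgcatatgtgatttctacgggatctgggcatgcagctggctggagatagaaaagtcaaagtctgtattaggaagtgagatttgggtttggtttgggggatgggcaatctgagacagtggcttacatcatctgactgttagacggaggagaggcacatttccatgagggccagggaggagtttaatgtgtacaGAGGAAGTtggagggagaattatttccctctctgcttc

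In these windows the core began 7 bases after the start in Cd53 and 8 bases before it in Havcr2 and Slamf9. For the lower genes, the windows of Nr4a3 (chr4:48045055-48045334), Errfi1 (chr4:150854820-150855099) and Homer1 (chr13:93303507-93303786), all on the plus strand, are printed the same way, with TGACG and its reverse complement in capitals.
Nr4a3: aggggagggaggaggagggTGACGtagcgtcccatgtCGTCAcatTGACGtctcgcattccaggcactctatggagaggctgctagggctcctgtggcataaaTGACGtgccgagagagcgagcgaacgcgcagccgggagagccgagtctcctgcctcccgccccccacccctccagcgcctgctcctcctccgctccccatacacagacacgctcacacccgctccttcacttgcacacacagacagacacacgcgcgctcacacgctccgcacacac
Errfi1: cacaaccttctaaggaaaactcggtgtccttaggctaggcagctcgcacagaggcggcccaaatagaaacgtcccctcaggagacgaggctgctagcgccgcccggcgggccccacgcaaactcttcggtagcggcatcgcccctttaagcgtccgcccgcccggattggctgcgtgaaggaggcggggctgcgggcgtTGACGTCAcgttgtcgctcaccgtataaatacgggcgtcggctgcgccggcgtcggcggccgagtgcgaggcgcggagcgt
Homer1: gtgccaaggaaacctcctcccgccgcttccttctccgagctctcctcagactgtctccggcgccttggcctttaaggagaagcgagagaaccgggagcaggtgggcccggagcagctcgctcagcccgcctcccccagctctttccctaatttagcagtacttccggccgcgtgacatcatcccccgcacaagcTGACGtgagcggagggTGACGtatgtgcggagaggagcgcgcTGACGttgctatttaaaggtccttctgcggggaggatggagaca

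These hold 4 such matches in Nr4a3, 3 in Homer1 and 2 in Errfi1, where the matches overlap and together spell the full element TGACGTCA. Fosl2, the lower gene of this group with the smallest p, held none in its window.

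The test of whether the effect of the knock-in differed between p16 backgrounds found no gene in edgeR. The interaction called 0 genes in edgeR, where 1021 (5.26%) had an unadjusted p under 0.05 and the smallest adjusted p was 0.897, and 1 in DESeq2, the predicted gene Gm18733 (DESeq2 adjusted p = 0.0101). Of the 154 genes called in the average, 16 (10.4%) had an unadjusted interaction p under 0.05, and of the 85 called in neither background 1 did, Capg, an actin-capping protein, at 0.72 with p16 and 0.23 without it. Choosing genes that the average called and neither background did favours like differences in both. The count among the 85 therefore does not show whether p16 alters these responses. The higher genes had a median log2 difference of 0.59 with p16 and 0.45 without it, and the difference was larger with p16 in 92 of 126. Averaging also gave up 9 genes that 1 background called. Egr2, an immediate early factor, was at −0.98 with p16 and −0.56 ± 0.14 in the average (adjusted p = 0.069), and the kinase Sik1 was at −0.45 with p16 and −0.27 ± 0.07 in the average (adjusted p = 0.0616). The second C5a receptor C5ar2 had opposite signs in the backgrounds, at 0.87 with p16 and −0.07 without it, and was not called in the average (adjusted p = 0.108). Bnip5 was at −0.15 with p16 and 0.47 without it (adjusted p = 0.447 in the average).

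H2bc1, a histone H2B gene expressed in germ cells, had reads in libraries with the knock-in and in none without it. It had 145 reads over the 11 libraries with the knock-in (0 to 31 per library, with a read in 9 of 11) and 0 over the 12 without it. Against a floor of 3 reads over the group, 0.00454 CPM, its 0.246 CPM were at least 54.3-fold higher. H2bc1 passed the filter on low counts only through the libraries with the knock-in, and fell below it without AppNLGF_p16KO library 18 or 22. It was tested with the other genes. It is counted among the 126 higher genes, the 62 that only the average called and the 18 higher windows with TGACG. Because of the filter, that call is not used as support, and H2bc1 is given as a description. It was chosen after its values were seen, and its many near-identical relatives make unique counts uncertain. Gpr65, Cst7 and Ccl4 had reads in both groups, but would not have passed the filter on the libraries without the knock-in alone. They are counted among the called genes, and their calls are likewise given as descriptions.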

How the data were processed

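Per the labels' protocols, stranded poly-A libraries were amplified with 12 PCR cycles and read as single ends of 50 bases. The submitters' processing notes name cutadapt 4.2, Bowtie2 2.3.5, STAR 2.7.10b, DESeq2 1.45.3 and the builds GRCm38 and mm39. The deposited values are raw counts of uniquely aligned reads per gene, per the labels, with no normalisation. The libraries carried no molecular identifiers, so depth covers counting error only. The labels number the libraries 1 to 23, and p-values measure the spread between these libraries.

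From these counts, filterByExpr (minimum 10) kept 19423 of 37173 genes. edgeR 4.0.16 in R 4.3.3 was used with TMM scaling, 1 model of the 4 genotypes and a two-sided robust quasi-likelihood F test, adjusted by Benjamini-Hochberg with a threshold of 0.05. The average is the mean of AppNLGF minus WT and AppNLGF_p16KO minus p16KO. Values are TMM-scaled CPM, and errors of log2 differences are SE. Gene positions are those of GRCm38. Gene lists are described by counts and medians. The procedure was tested on simulated data.

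The comparison, the gene lists and the marker lists were chosen with earlier results of these data known. Leaving out predicted genes, the naming rule took the 12 rising and 12 falling called genes of smallest p, the 15 rising and 15 falling of smallest p among those called only in the average, up to 6 called members of each list (or 1 to 2 abundant ones), App, Cdkn2a, the cell type markers and the 5 genes of smallest interaction p. Some results that the rule names are not reported here. Genes taken outside it are said to be chosen after their values were seen. These also include Chchd5, Capg, Selplg, P2ry13, Egr2, Sik1 and Gm18733. Alternatives were RLE scaling, DESeq2 1.42.0, limma-voom (limma 3.58.1), other count filters, non-robust dispersion, an additive model, 11 against 12 libraries without a p16 term, a sex score, 1 surrogate variable (sva 3.50.0), omission of each library, omission of the library past the submitters' distance limit, a threshold of 0.01, and each background alone.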

Additional observations from a re-analysis of the deposited data

Results flagged for a closer look

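In groups of 5 or 6 libraries, the highest or lowest library was compared with the rest by Dixon's ratio at the 95% level, which chance exceeds in about 1 in 20 groups. The check was made in each genotype group for 117 genes named here, and for the means of lists with a called gene. Many of the libraries given below are therefore expected by chance. Values are CPM unless a list mean is named, which is the mean log2(CPM + 0.5) over a list.

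Among the libraries with the knock-in, AppNLGF 16 was low for the complement genes C1qa (52.7, others 65.0 to 69.8), C1qb (50.5, others 64.6 to 67.7) and C1qc (48.2, others 60.0 to 63.8), and high for Zbtb1 (26.2, others 22.7 to 23.5). AppNLGF 17 was high for H2-Oa (0.855, others 0.676 to 0.724), Psmb8 (5.57, others 4.06 to 4.42) and the interferon list mean (2.59, others 1.79 to 1.99). AppNLGF 15 was high for the chemokine Ccl3 (2.07, others 0.853 to 1.12), AppNLGF 13 for Sec23ip (59.6, others 53.6 to 54.2) and AppNLGF 14 for Calb1 (207, others 129.9 to 151). In the AppNLGF_p16KO group, library 22 was high for the phosphatase Ptpn6 (5.65, others 4.36 to 4.70) and for Gm47113 (3.44, others 1.01 to 1.45), library 20 for Aif1 (11.9, others 7.01 to 8.09) and library 19 for Frmd6 (19.7, others 17.2 to 18.1). Library 23 was low for Cd53 (9.05, others 11.7 to 12.9) and library 19 for Tlr2 (1.62, others 2.40 to 2.81).

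Among the libraries without the knock-in, p16KO 7 was high for Cd33 (13.6, others 9.76 to 11.0), Lyz2 (13.5, others 5.94 to 8.69), Naip2 (1.67, others 0.877 to 1.15), Tap1 (5.45, others 3.99 to 4.50), Il1r1 (40.3, others 19.0 to 24.8) and the glucocorticoid list mean (5.53, others 4.73 to 4.95). p16KO 9 was high for Gpr84 (0.884, others 0.536 to 0.636), Tlr2 (2.57, others 1.28 to 1.74) and the antigen presentation list mean (2.84, others 2.43 to 2.58). p16KO 10 was high for Ly9 (0.477, others 0.146 to 0.242), and p16KO 8 was high for Fosl2 (88.6, others 68.9 to 72.4) and low for Ifit3b (0.991, others 1.77 to 2.22). In WT, library 1 was low for Gfap (273, others 330 to 364) and high for Frmd6 (24.0, others 19.8 to 21.2), Egr2 (5.70, others 2.74 to 3.77) and P2ry12 (50.9, others 44.1 to 46.4). WT 6 was high for Ccl3 (0.221, others 0.0934 to 0.125), Chchd5 (7.73, others 5.94 to 6.53) and the chemokine list mean (2.42, others 2.29 to 2.33), and low for Ddi2 (73.2, others 77.5 to 80.0). WT 4 was high for St14 (0.974, others 0.467 to 0.589) and WT 5 low for Csf1r (72.4, others 84.3 to 90.9).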

How the results depend on the processing

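The number of genes called in the average was 154, and 158 with RLE scaling, 151 with limma-voom, 153 without robust dispersion, 152 with an additive model, 133 for 11 against 12 libraries, 151 with a sex score, 145 with 1 surrogate variable and 127 without a count filter. DESeq2 called 285 (195 higher, 90 lower), which held all 154. A threshold of 0.01 gave 89. Each background alone gave 62 (59 higher, 3 lower) with p16 and 48 (43 higher, 5 lower) without p16. The interaction was called in 1 gene by DESeq2 and in 0 by edgeR. No call of the average changed sign in any alternative fitted. With each background alone, Bnip5 with p16 (−0.15), C5ar2 without p16 (−0.073) and Hmgcs1 with p16 (−0.0027), none of them called, had the sign opposite to the average. Over the other alternatives and the genes named here, 3596 values kept their direction and side of the threshold, 462 lost the call and 26 gained it.

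When each library was left out, the average called 110 to 159 genes, 99 to 130 of them higher and 11 to 37 lower. The lower calls were 11 without AppNLGF 15, 14 without WT 2, 15 without p16KO 11, and 18 without WT 3, p16KO 10 or AppNLGF 13. The genes called in neither background were 53 to 86, with 53 without AppNLGF 15. AppNLGF against WT called 47 to 72, AppNLGF_p16KO against p16KO 29 to 61 (29 without p16KO 11), and both backgrounds 24 to 33. The call held in all 23 such fits for 28 of the 62 higher and 6 of the 23 lower genes that only the average called, and for 61 of 64 higher and 3 of 5 lower genes that a single background also called. AppNLGF_p16KO 21 lay past the submitters' distance limit (squared distance 12.4, limit 11.1), and without it 136 genes were called (113 higher, 23 lower), 29 in AppNLGF_p16KO against p16KO and 73 in neither background. No paired analysis was possible because the labels number the libraries 1 to 23 with no number shared between groups. The scarcest genes named here rest on few reads, and a difference not called is not shown to be absent.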

Other observations

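Lists with 0 or 1 called members are given here by their counts and medians. Of 30 genes of cholesterol and fatty acid synthesis 28 were above 0, with a median log2 difference of 0.11 (0.01 with p16 and 0.19 without it) and 0 called by edgeR, though 13 had an unadjusted p under 0.05; the synthase Hmgcs1 was at 0.19 ± 0.09 (edgeR adjusted p = 0.459). Of 74 nuclear genes of oxidative phosphorylation 61 were above 0, with a median of 0.05, or 0.036 without AppNLGF_p16KO library 21. Of 79 ribosomal protein genes 56 were above 0 (median 0.06), and 1 was called higher (1.27%, against 0.649% of all genes tested). It was Rpl37a, at 0.26 ± 0.06 (edgeR adjusted p = 0.0439), whose processed copies make unique counts uncertain. The call of Rpl37a was lost in 17 of 23 leave-one-out fits. Of 30 myelin genes 26 were above 0, with a median of 0.08 that was 0.02 without AppNLGF_p16KO library 21. Genes that label choroid plexus had a median of −0.05 that was 0.40 with p16 and −0.56 without it, and its sign turned when single libraries were left out (0.087 without WT library 4, 0.12 without p16KO library 12). Of 20 genes of ependymal cilia 18 were below 0 (median −0.11, with −0.04 in the presence of p16 and −0.25 in its absence, or −0.18 without p16KO library 8), and of 24 circadian genes 17 were below 0 (median −0.05). CA pyramidal genes (23) and presynaptic genes (38) had medians of 0.00 and 0.01. None of these lists was tested as a group.

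Of 25 genes whose 11 libraries with the knock-in did not overlap with the 12 without it (0.129% of genes tested), all were higher with the knock-in, and Cst7, a cathepsin inhibitor of plaque microglia, had the largest separation named here, at 3.68 to 7.84 CPM with and 0.044 to 0.366 CPM without it. None of the 25 was among the genes called only in the average. Cst7 would not have passed the filter on low counts on the libraries without the knock-in alone, so its separation is given as a description. On chromosome 17, which holds 4.71% of the genes tested, 13 of the 126 higher genes were found.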
